A study of Mus musculus with 12 samples.

Results

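The transcription factor genes that set intestinal lineage were followed after deletion of ieCtnnb1, an intestinal enhancer of the β-catenin gene *Ctnnb1*. They were taken by name from the deposited tables, and 8 of 54532 genes were members in each table: *Hnf4a*, *Hnf4g*, *Cdx1*, *Cdx2*, *Gata4*, *Gata5*, *Gata6* and *Elf3*. RNA-seq libraries came from small intestinal crypts of adult wild-type and ieCtnnb1KO mice and from colon tumors of APCmin/+ and APCmin/+;ieCtnnb1KO mice, with 3 libraries in each of 4 groups. The mice were on a C57BL/6 background, the tumor-bearing mice were 5 months old, and all tumor mice carried the *Apc* allele that starts intestinal adenomas. The enhancer was deleted on both alleles by CRISPR/Cas9 editing in the knockout mice, and the sample titles call the APCmin/+ group a wild-type tumor. Crypts were released from the opened small intestine with EDTA, whereas tumors were harvested as tissue, so each library mixes cells and fewer cells of a type and less RNA per cell cannot be told apart. Expression was given as FPKM, fragments per kilobase of gene at a common library scale, from between 14457896 and 16156712 fragments on genes per library.

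HNF4α and HNF4γ are nuclear receptors that bind as dimers and switch on genes of absorption and the brush border in enterocytes. CDX1 and CDX2 are homeodomain proteins that keep the epithelium intestinal, and loss of CDX2 lets gastric genes appear. GATA4, GATA5 and GATA6 are zinc finger proteins, of which GATA4 is known for separating the proximal small intestine from the ileum, and ELF3 is an ETS factor of differentiating epithelium.

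The tissue labels were first set against marker genes. The 8 epithelium markers, led by *Krt8*, summed to between 3868 and 5121 FPKM in crypts, while the 5 smooth muscle markers summed to at most 0.389 FPKM and the 5 enteric neuron and glia markers to at most 0.443 FPKM. *Hoxb13*, a gene of the distal hindgut, was listed at 0 in all 6 crypt libraries and lay between 70.1 and 127.9 FPKM in the 6 tumor libraries. The tumors also held stroma, as the 6 fibroblast markers, led by *Col1a1*, summed to between 208 and 452 FPKM.

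The enhancer has no row of its own, so *Ctnnb1* served to check the knockout labels. In crypts, *Ctnnb1* was at 121, 134 and 123 FPKM in wild-type and at 102, 104 and 105 FPKM in ieCtnnb1KO libraries. In tumors, it was at 299, 363 and 358 FPKM in APCmin/+ and at 279, 248 and 250.2 FPKM in APCmin/+;ieCtnnb1KO libraries. All 3 knockout libraries lay below all 3 controls in each tissue, with log2 fold changes of -0.28 ± 0.12 in crypts and -0.39 ± 0.13 in tumors (± SE). Neither passed limma with Benjamini-Hochberg adjustment over all genes (adjusted p = 0.849 and 0.303).

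No gene of either table passed that test at an adjusted p under 0.05, so none of the 8 factors did. In crypts, 0% of 14176 tested genes had an adjusted p and 5.85% an unadjusted p under 0.05, against 0 of 8 factors by either rule. In tumors, 0% of 16743 tested genes had an adjusted p and 14.5% an unadjusted p under 0.05, against 0 and 1 of the 7 factors that reached a mean of 0.5 FPKM. By voom on recovered fragments 0 genes passed in either tissue, and 795 crypt and 2533 tumor genes had an unadjusted p under 0.05. The wild-type and knockout libraries did not overlap for 1 of 8 factors in crypts, beside 11.9% of all genes tested, and for 2 of 7 in tumors, beside 22.1%. These shares are near those of all genes, so they are not a result about the factors. Those factors had all knockout libraries above all controls, as did 6.79% of the genes tested in crypts and 11.4% in tumors. The median log2 fold change of the factors was 0.15 in crypts and 0.23 in tumors, beside 0.01 over all genes tested in each tissue. The paper's legends count 3 mice in each group, whereas the sample labels do not assign libraries to animals, and the p-values measure the spread between these libraries.

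**Figure D1:**
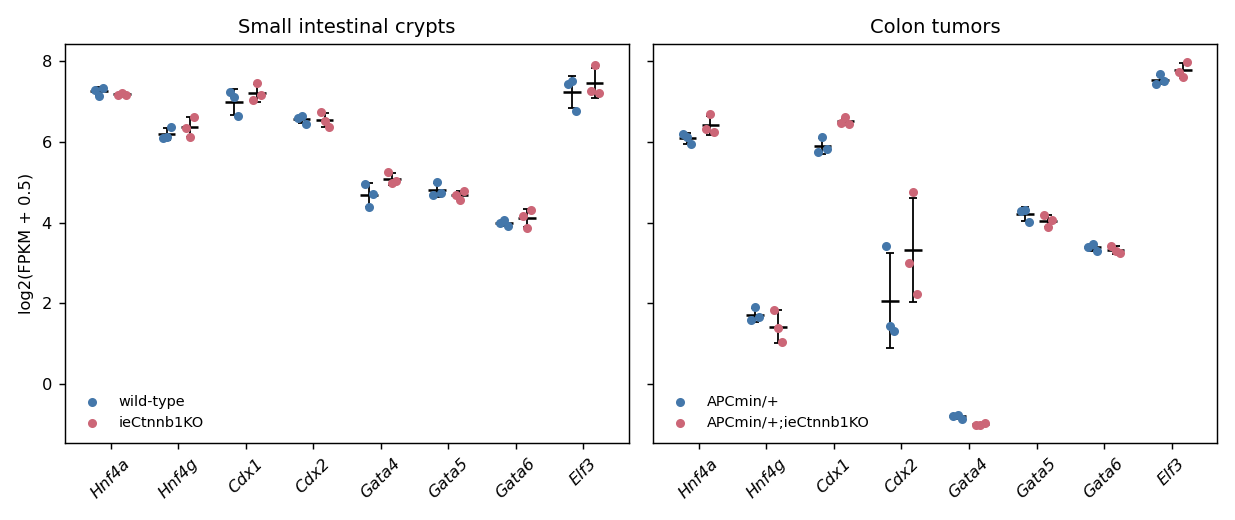
Expression of the 8 factors as log2(FPKM + 0.5) in small intestinal crypts (left) and colon tumors (right). Each point is a library, horizontal lines are means of 3 libraries and bars are SD. *Gata4* and *Hnf4g* sit low in tumors, and *Cdx2* spreads widely among the tumor libraries.

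Within wild-type crypts the highest means belonged to *Elf3* (154 ± 39.4 FPKM, SD, n = 3) and *Hnf4a* (152 ± 11.04), followed by *Cdx1* (129 ± 26.9), *Cdx2* (94.3 ± 6.46) and *Hnf4g* (73.0 ± 8.21). The GATA genes were lowest, with *Gata5* at 27.6 ± 3.45, *Gata4* at 25.6 ± 5.19 and *Gata6* at 15.4 ± 0.781 FPKM. Libraries overlapped between neighbours in this order except from *Cdx2* to *Hnf4g*, from *Hnf4g* to *Gata5* and from *Gata4* to *Gata6*. In the ieCtnnb1KO crypts *Gata4* (33.5 ± 3.44 FPKM) stood above *Gata5* (25.1 ± 1.81 FPKM) without overlap. In APCmin/+ tumors *Elf3* led at 187 ± 15.7 FPKM, above *Hnf4a* (67.7 ± 5.90) and *Cdx1* (59.7 ± 8.36), which overlapped each other. *Gata5* (18.1 ± 2.11), *Gata6* (9.96 ± 0.619), *Cdx2* (4.82 ± 4.68), *Hnf4g* (2.81 ± 0.410) and *Gata4* (0.0745 ± 0.0212) followed, and *Cdx2* overlapped both of its neighbours. The tables were normalized separately, so these levels were not tested between crypts and tumors.

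HNF4α is also a factor for which the study predicted binding sites in ieCtnnb1 and in the *Ctnnb1* promoter. The 2 mouse sites are shown because they tie a member of this family to the deleted element, and capitals mark the longest run of bases that they share.
HNF4α site in ieCtnnb1: gggggcaAAGTCTatc
HNF4α site in the *Ctnnb1* promoter: cggttccAAGTCTggt
The shared run is 6 bases long. The enhancer site holds the HNF4 word CAAAGT, and the promoter site does not. These 2 sites are predictions from sequence, and no binding was measured in the libraries described here. In separate assays the paper reported HNF4α at both elements in small intestinal crypts by ChIP-qPCR. It also reported less HNF4α at the *Ctnnb1* promoter in APCmin/+ tumors without the enhancer. Knockdown of *HNF4A* in a human colorectal cancer line lowered *CTNNB1* there.

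*Hnf4a* itself is read from separate starts, which a gene-level FPKM adds together. RefSeq promoters of 4 of the 8 factors were searched, those of *Hnf4a*, *Cdx2*, *Gata5* and *Elf3*. Promoters of the other factors were not searched, so whether they hold such words is not known here. The promoter of the upstream *Hnf4a* start is shown because it holds a word of another family described here. It has 250 bases before and 50 bases after the start, on the plus strand of GRCm38.p6, at chr2:163506607-163506906.
*Hnf4a* upstream start: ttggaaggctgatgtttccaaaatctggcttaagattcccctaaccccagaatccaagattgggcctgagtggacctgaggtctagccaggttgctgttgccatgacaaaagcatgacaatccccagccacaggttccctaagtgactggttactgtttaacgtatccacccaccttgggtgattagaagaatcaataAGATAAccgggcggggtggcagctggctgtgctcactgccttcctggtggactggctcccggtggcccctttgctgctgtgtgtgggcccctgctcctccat
Capitals mark any of 4 words searched on both strands: CAAAGT as the HNF4 word, AGATAA for GATA factors, TTTATG for CDX factors and ATCAAAG for TCF factors, with no overlap between matches here. The upstream start had AGATAA beginning 52 bases before it, a word found in 11.2% of 32851 RefSeq promoters of this length, and a match is a description, not a site.

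In crypts, *Hnf4a* was at 154, 140.0 and 162 FPKM in wild-type and at 144, 147 and 143 FPKM in ieCtnnb1KO libraries. The knockout values lay inside the range of the controls, and the log2 fold change of -0.07 ± 0.13 was smaller than its SE (limma, adjusted p = 0.959). In APCmin/+ tumors *Hnf4a* was at 72.5, 69.5 and 61.1 FPKM, and in APCmin/+;ieCtnnb1KO tumors at 78.9, 102 and 74.8 FPKM. All 3 knockout tumors were above all controls, the lowest knockout standing near the highest control. The log2 fold change was 0.32 ± 0.14, with an unadjusted p of 0.0581 and an adjusted p of 0.361 in limma. It was 0.18 with quantile normalization, and with a library left out it ran from 0.19 without APCmin/+;ieCtnnb1KO replicate 2 to 0.41 without replicate 3 of that group (unadjusted p = 0.0341). Alignment of the libraries on the epithelium markers moved the median of all genes to -0.19 and *Hnf4a* to 0.12, which is 0.31 above that median, as in the main fit. Those markers were themselves higher in the knockout tumors, with 7 of 8 having higher values and sums of 4543, 4655 and 4091 FPKM in controls against 5369, 5148.5 and 5538 FPKM. Their part in the *Hnf4a* value was otherwise not tested.

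HNF4γ, the close relative of HNF4α, was plentiful in crypts and low in colon tumors. *Hnf4g* was at 67.7, 68.9 and 82.5 FPKM in wild-type crypts and at 81.3, 69.2 and 97.6 FPKM in ieCtnnb1KO crypts, where the groups overlapped. In tumors it was at 2.49, 3.27 and 2.67 FPKM in controls and at 3.10, 2.11 and 1.56 FPKM in knockouts, where 2 of 3 knockout libraries were below all controls. The log2 fold changes were 0.17 ± 0.17 and -0.30 ± 0.22, and limma gave adjusted p-values of 0.913 and 0.548. When a library was left out, the crypt value ran from 0.04 without ieCtnnb1KO replicate 3 to 0.29 without ieCtnnb1KO replicate 2. The tumor value ran from -0.51 without APCmin/+;ieCtnnb1KO replicate 1 (unadjusted p = 0.0411) to -0.10 without replicate 3 of that group. The log2 ratio of *Hnf4g* to *Hnf4a* within a library depends little on library scaling. It averaged -1.06 ± 0.11 in wild-type and -0.82 ± 0.27 in ieCtnnb1KO crypts, and -4.37 ± 0.21 in APCmin/+ and -4.98 ± 0.45 in APCmin/+;ieCtnnb1KO tumors (SD, n = 3, exact two-sided permutation p = 0.3 in crypts and 0.2 in tumors). Over 4 ratios the adjusted p was 0.4 in each tissue, and 3 libraries against 3 cannot give a permutation p below 0.1.

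*Hnf4a* and *Hnf4g* share bases with other annotated genes. *Hnf4aos*, on the opposite strand, covers 34913 bases of the *Hnf4a* span and ranged from 0.339 to 5.15 FPKM in crypts and from 0.194 to 0.392 FPKM in tumors. Use of the strand in counting is not given in the sources at hand, so reads of *Hnf4aos* and *Hnf4a* cannot be told apart. The small gene *Gm25881* within *Hnf4a* reached 1.79 FPKM, and *Gm37000* and *Gm23237* within *Hnf4g* reached 0.289 and 0 FPKM.

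**Figure D2:**
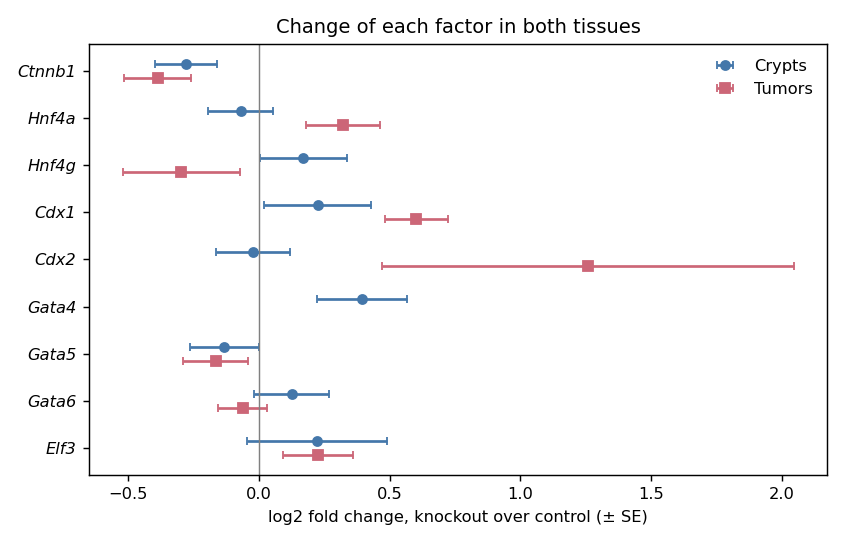
Log2 fold change of *Ctnnb1* and each factor, knockout over control on the log2(FPKM + 0.5) scale, in crypts (circles) and tumors (squares), with bars for the SE from limma on 3 against 3 libraries. *Cdx1* in tumors is at 0.60 and *Cdx2* in tumors has the widest bar, with an SE of 0.79. *Gata4* has no tumor point because it was below the expression filter.

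*Cdx1* gave the smallest p-value of the factors. It was at 53.5, 69.2 and 56.4 FPKM in APCmin/+ tumors and at 88.2, 97.3 and 86.0 FPKM in APCmin/+;ieCtnnb1KO tumors. Every knockout tumor was above every control, and the spread within each group (SD of 8.36 and 5.96 FPKM) was small beside the gap. The log2 fold change was 0.60 ± 0.12, with an unadjusted p of 0.00179 in limma and an adjusted p of 0.269. It was 0.40 when libraries were aligned on the epithelium markers, which is 0.59 above the median of all genes, as in the main fit, and its unadjusted p was under 0.05 in all 20 alternatives tried (0.0155 at most). In crypts, *Cdx1* was at 149.9, 139 and 98.8 FPKM in wild-type and at 130.3, 176 and 143 FPKM in ieCtnnb1KO libraries, which overlapped (log2 fold change 0.23 ± 0.20, limma, adjusted p = 0.909). The crypt value ran from 0.04 without wild-type replicate 3 to 0.34 without wild-type replicate 1. The tumor change minus the crypt change was 0.38 ± 0.24 on the log2 scale (limma on 12 libraries, adjusted p = 0.699).

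*Cdx2* was steady in crypts and uneven in tumors. Wild-type crypts had 96.3, 99.5 and 87.0 FPKM and ieCtnnb1KO crypts 106, 91.8 and 82.3 FPKM, with a log2 fold change of -0.02 ± 0.14 (limma, adjusted p = 0.994). APCmin/+ tumors had 10.2, 2.22 and 2.01 FPKM and APCmin/+;ieCtnnb1KO tumors 7.45, 26.5 and 4.17 FPKM. The highest tumor library had 13.2 times the FPKM of the lowest, and a high and a low library occurred in both genotypes. The log2 fold change of 1.26 ± 0.79 did not pass limma (adjusted p = 0.476). With a library left out it ran from 0.54 without APCmin/+;ieCtnnb1KO replicate 2 to 1.94 without APCmin/+ replicate 1 (unadjusted p = 0.0360, adjusted p = 0.273). The log2 ratio of *Cdx1* to *Cdx2* overlapped between genotypes in both tissues (exact two-sided permutation p = 0.4 in crypts and 0.5 in tumors, n = 3 per group). The tumor difference of -0.66 in that ratio ran from -1.41 to 0.01 when the same libraries were left out.

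*Hoxd13*, a posterior Hox gene on the list of colon segment genes that was singled out after its values were seen, ran opposite to *Cdx2* from tumor to tumor. *Hoxd13* was at 0.0746, 65.7 and 63.0 FPKM in APCmin/+ tumors and at 2.85, 0.176 and 42.5 FPKM in APCmin/+;ieCtnnb1KO tumors. The 3 libraries with the highest *Cdx2* (APCmin/+ replicate 1 and APCmin/+;ieCtnnb1KO replicates 1 and 2) were the 3 with the lowest *Hoxd13*. *Hoxb13* did not split the tumors this way, at 70.1, 99.2 and 93.2 FPKM in controls and 108, 82.7 and 127.9 FPKM in knockouts. The labels do not give the position of a tumor along the colon, and its part in the *Cdx2* values was not tested.

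**Figure D3:**
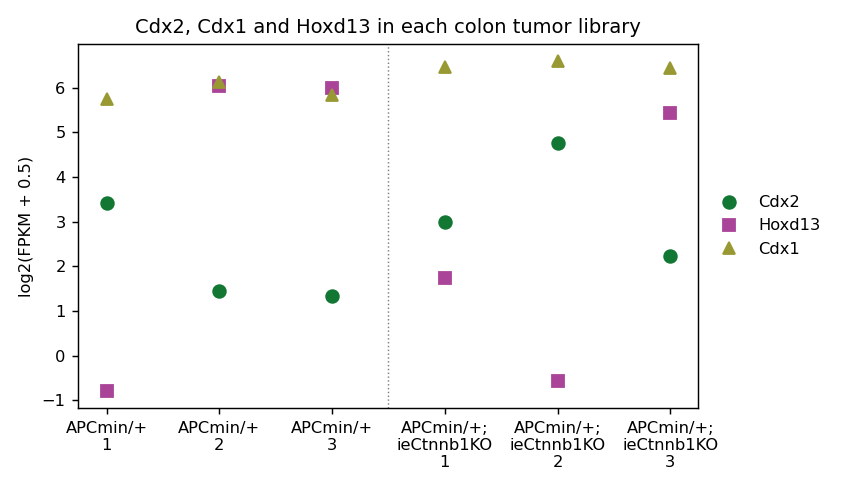
*Cdx2*, *Cdx1* and *Hoxd13* as log2(FPKM + 0.5) in each of the 6 colon tumor libraries, with the genotypes parted by a dotted line. *Hoxd13* is low where *Cdx2* is high, while *Cdx1* parts the genotypes, with 69.2 FPKM as the highest control and 86.0 FPKM as the lowest knockout.

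Among the GATA genes, *Gata4* was the factor whose crypt groups did not overlap. It was at 30.7, 20.4 and 25.8 FPKM in wild-type and at 37.5, 31.1 and 32.0 FPKM in ieCtnnb1KO crypts. All 3 knockout libraries were above all controls, though the lowest knockout and the highest control nearly met. The log2 fold change was 0.40 ± 0.17, with an unadjusted p of 0.0562 and an adjusted p of 0.849 in limma. Over the alternatives the unadjusted p ran from 0.0156 to 0.186 and was under 0.05 in 3 of 20. Among left-out libraries the log2 fold change ran from 0.24 without wild-type replicate 2 to 0.53 without wild-type replicate 1. It was 0.54 with the same total in every library. In tumors *Gata4* was at the limit of detection, with 5, 6 and 3 fragments in APCmin/+ libraries and 0, 0 and 1 in APCmin/+;ieCtnnb1KO libraries. No fold change is given at that depth.

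*Gata5* and *Gata6* were expressed in both tissues at moderate levels. *Gata5* was at 25.2, 31.6 and 26.1 FPKM in wild-type and 25.1, 23.3 and 26.9 FPKM in ieCtnnb1KO crypts, and at 19.1, 19.5 and 15.7 FPKM in APCmin/+ and 17.7, 14.2 and 16.3 FPKM in APCmin/+;ieCtnnb1KO tumors. *Gata6* was at 15.4, 16.2 and 14.7 FPKM in wild-type and 17.5, 14.1 and 19.5 FPKM in ieCtnnb1KO crypts, and at 9.96, 10.6 and 9.34 FPKM in APCmin/+ and 10.2, 9.37 and 8.99 FPKM in APCmin/+;ieCtnnb1KO tumors. For these genes the genotypes overlapped in both tissues, and the 4 log2 fold changes lay between -0.16 and 0.13 (limma, adjusted p from 0.544 to 0.925). *Gata6* was the steadiest of the factors in tumors, where its highest library had 1.18 times the FPKM of its lowest. The log2 ratio of *Gata5* to *Gata6* averaged 0.81 ± 0.13 in wild-type and 0.55 ± 0.13 in ieCtnnb1KO crypts (SD, n = 3, exact two-sided permutation p = 0.2). The ratio of *Gata4* to *Gata6* in crypts was 0.69 ± 0.34 and 0.96 ± 0.23 (exact two-sided permutation p = 0.3, n = 3). *Gata5os* shares 1843 bases with *Gata5* on the opposite strand and stayed at or below 1.95 FPKM, and *1010001N08Rik* shares 60 bases with *Gata6*.

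*Elf3* was the most abundant factor in tumors. It was at 173, 203.9 and 183 FPKM in APCmin/+ and at 213, 193 and 251 FPKM in APCmin/+;ieCtnnb1KO tumors, where 2 of 3 knockout libraries were above all controls. In crypts it was at 173, 180.2 and 109 FPKM in wild-type and at 153, 238 and 149 FPKM in ieCtnnb1KO libraries, with the lowest value in wild-type replicate 3. The log2 fold changes were 0.22 ± 0.27 in crypts and 0.23 ± 0.13 in tumors (limma, adjusted p = 0.931 and 0.460). The crypt value ran from -0.01 without wild-type replicate 3 to 0.35 without wild-type replicate 2, and the tumor value from 0.12 without APCmin/+;ieCtnnb1KO replicate 3 to 0.31 without replicate 2 of that group. In tumors it was 0.02 with quantile normalization. It was also 0.02 when libraries were aligned on the epithelium markers, which is 0.22 above the median of all genes, as in the main fit. *Gm26642*, on the opposite strand, spans all 4994 bases of *Elf3* and was at or below 3.07 FPKM.

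Whether the deletion acted differently in the tissues was asked for all genes at once. None of 13370 genes (0%) had an adjusted p under 0.05 for the tumor change minus the crypt change in limma, while 8.47% had an unadjusted p under 0.05, against 0 of the 7 factors tested. The factor nearest to that limit was *Hnf4a*, with a difference of 0.39 ± 0.18 and an adjusted p of 0.590, and *Elf3* had a difference of 0.00 ± 0.32.

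The spread of the factors within a group was also compared, with each library's log2(FPKM + 0.5) taken relative to the mean of its own group. *Hnf4a* and *Cdx2* had a Pearson r of 0.79 over 12 libraries, but it was -0.40 over the 6 crypt and 0.88 over the 6 tumor libraries, where *Cdx2* varied most. *Cdx1* and *Elf3* also had an r of 0.79 over 12, which was 0.95 in crypts and 0.15 in tumors, so neither of these values describes both tissues. *Gata5* and *Gata6* had an r of 0.68 in crypts and 0.73 in tumors, and *Hnf4g* and *Gata6* one of 0.66 and 0.86. *Hnf4g* and *Elf3* had an r of -0.89 in crypts and -0.22 in tumors. Among 11563 genes with a mean of at least 1 FPKM in both tables, those most like *Hnf4a* were *Ang* (r = 0.92), *Mgam2-ps* (0.91) and *Tmprss2* (0.91), and those most like *Hnf4g* were *Uvrag* (0.95), *Mptx1* (0.94) and *Mettl5* (0.92). *Cdx1* was most like *Plagl2* (0.95), *Cox18* (0.94) and *Polh* (0.94). *Cdx2* was most like *Ttyh2* (0.97), *Mcoln2* (0.96) and *Car12* (0.96). *Gata5* was most like *Otop3* (0.92), *Cd59a* (0.91) and *Gm22661* (0.91), *Gata6* like *Polr2a* (0.95), *Gm38329* (0.93) and *Wee1* (0.90), and *Elf3* like *Katnbl1* (0.98), *Scmh1* (0.96) and *Gm48194* (0.95). These likeness values were taken over all 12 libraries and not within each tissue, so they need not describe both. They are descriptions picked as the highest of many, and libraries of a group share their preparation.

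Genes known as HNF4 targets were then read from the same fits. In crypts, 15 of 16 had higher values in ieCtnnb1KO libraries, beside 52.8% of all genes tested, with a median log2 fold change of 0.27 beside 0.01. The 2 with an unadjusted p under 0.05, beside 3.48% of all genes tested that were higher with such a p, were *Mttp*, the transfer protein that loads lipid onto apolipoprotein B, and *Cideb*, a lipid droplet protein. *Mttp* was at 154, 179.9 and 164 FPKM in wild-type and 257, 188 and 284 FPKM in ieCtnnb1KO crypts, without overlap (log2 fold change 0.53 ± 0.19, limma, adjusted p = 0.806). The count and the median ran from 8 of 16 and -0.02 without wild-type replicate 1 to 16 of 16 and 0.57 without wild-type replicate 3. Alignment on the epithelium markers moved the median of all genes to -0.06. There 10 of 16 were higher, with a median of 0.19, and 0 had an unadjusted p under 0.05. Quantile normalization gave 12 of 16 higher, 2 of them with such a p. The 5 enterocyte markers, of which *Fabp2* and *Apoa1* are also on the HNF4 list, summed to 3112, 4686 and 8272 FPKM in wild-type and 6332, 4907 and 7766 FPKM in ieCtnnb1KO crypts. The 6 Paneth cell markers, led by *Defa24*, summed to 17925, 26190 and 50414 FPKM in wild-type and 19676, 17233 and 17863 FPKM in ieCtnnb1KO crypts. All 6 had lower values, 2 of them with an unadjusted p under 0.05, and the median was -0.63. Of all genes tested in crypts 52.8% were higher, and 2.36% were lower with such a p. The 6 goblet cell markers, led by *Spink4*, summed to 4189, 6217 and 6697.5 FPKM and 3654, 4257.5 and 5886 FPKM, with 5 of 6 lower. The 6 enteroendocrine markers, led by *Chgb*, summed to 165, 142 and 196 FPKM and 104, 145 and 138 FPKM, with 4 of 5 tested lower, 2 of them with an unadjusted p under 0.05. The part of these markers in the HNF4 target count was not tested.

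In tumors, 9 of the 16 HNF4 target genes reached the expression filter and 7 had higher values in the knockouts, beside 51.3% of all genes tested, with a median of 0.74 beside 0.01. The microvillar cadherins *Cdhr5* and *Cdhr2* were among them, at log2 fold changes of 0.94 ± 0.31 and 0.83 ± 0.34, with *Mep1b*, a brush border metalloprotease, at 0.84 ± 0.30. *Anpep*, the aminopeptidase N gene, had lower values, at -0.49 ± 0.18 (limma, adjusted p from 0.303 to 0.344 for these genes). *Apoa1*, *Apoa4*, *Apoc3* and *Fabp1* were at or near 0 in tumors, with 1.21 FPKM as their highest value, in APCmin/+;ieCtnnb1KO replicate 2, the library with the highest *Cdx2*. Of the 9 genes, 4 with higher and 1 with lower values had an unadjusted p under 0.05, beside 8.46% and 6% of all genes tested, and with a library left out the 4 became 0 to 5 and the 1 became 0 to 1.

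CDX2 target genes had higher values in the knockout tumors. All 10 that passed the filter in tumors were higher in APCmin/+;ieCtnnb1KO libraries and 8 had an unadjusted p under 0.05, beside 51.3% and 8.46% of all genes tested. Their median log2 fold change was 0.64, beside 0.01. *Muc2*, the main gel-forming mucin, was at 151, 122.5 and 114 FPKM in controls and 259, 419 and 295 FPKM in knockouts (1.31 ± 0.21, limma, adjusted p = 0.269). *Guca2a*, the guanylin gene, was at 43.8, 47.1 and 50.5 FPKM and 91.0, 143 and 86.3 FPKM (1.13 ± 0.20), and *Tff3*, a goblet cell peptide, at 315, 308 and 317 FPKM and 498, 662 and 651 FPKM (0.93 ± 0.15). *Lgals4* had 0.61 ± 0.16 and *Krt20*, a keratin of differentiated epithelium, 0.96 ± 0.25. *Heph*, the ferroxidase hephaestin, overlapped between genotypes, at 7.59, 4.49 and 4.05 FPKM in controls and 6.54, 11.5 and 5.14 FPKM in knockouts. All 10 were also higher with any single library left out, 5 to 8 of them with an unadjusted p under 0.05. In crypts, 5 of 12 had higher values, with a median of -0.04 and no unadjusted p under 0.05, and 3 to 8 had higher values with a library left out.

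Goblet cell markers were higher beside this list in tumors. All 6, of which *Muc2* is on both lists, were higher with an unadjusted p under 0.05, beside 8.46% of all genes tested. They summed to 1093, 1112 and 1138 FPKM in APCmin/+ and 2191, 2559 and 2197 FPKM in APCmin/+;ieCtnnb1KO tumors, with *Spink4* the most abundant. *Atoh1*, the factor that commits cells to the secretory lineage, was at 5.88, 6.60 and 6.72 FPKM and 8.88, 13.9 and 7.89 FPKM. The fibroblast markers were also higher (345, 216 and 208 FPKM against 346, 452 and 358 FPKM), with *Col1a1* the most abundant. The leukocyte markers summed to 112, 186 and 140.3 FPKM against 111, 82.8 and 95.7 FPKM, but that sum followed *S100a8*, at 66.8, 152.7 and 98.2 FPKM against 64.7, 31.2 and 63.2 FPKM. Of the 5 leukocyte markers tested 3 had higher and 2 lower values, with a median of 0.02. Whether these shifts in markers account for the CDX2 target values was not tested.

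**Figure D4:**
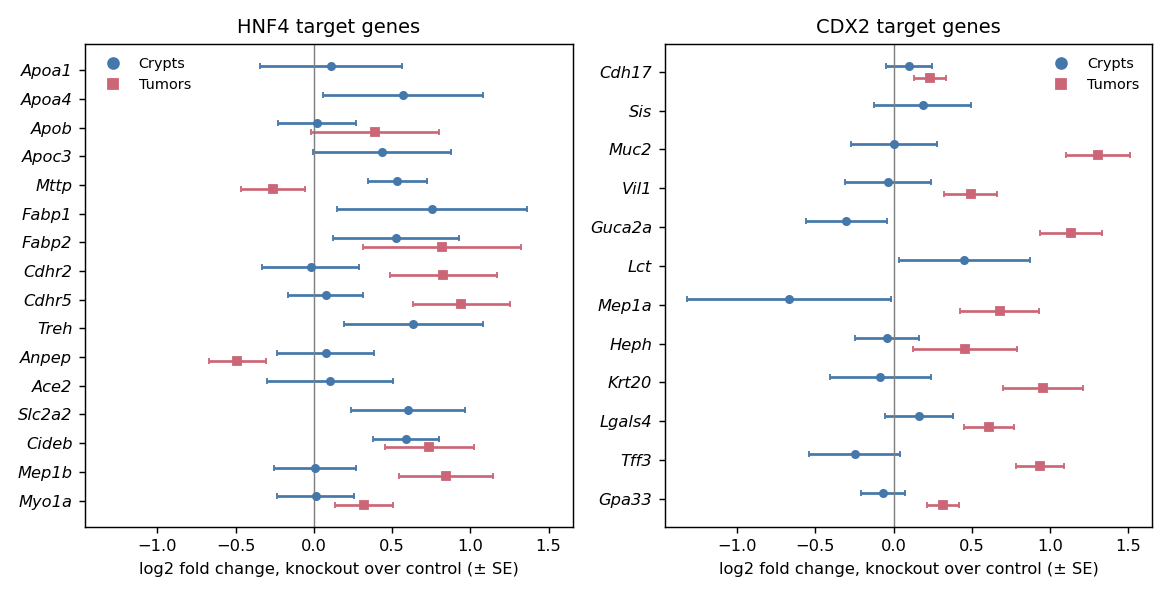
Log2 fold change, knockout over control, of HNF4 target genes (left) and CDX2 target genes (right) in crypts (circles) and tumors (squares), with bars for the SE from limma. Genes with no square were below the filter in tumors. The CDX2 target genes in tumors all lie right of 0, with a median of 0.64, and those in crypts lie on both sides.

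Genes that depend on GATA4 in the jejunum, and ileal genes that GATA4 holds down, were compared with *Gata4* in crypts. All 6 jejunal genes had higher values in ieCtnnb1KO crypts, beside 52.8% of all genes tested, with a median log2 fold change of 0.51, and 0 of 6 had an unadjusted p under 0.05. The median ran from 0.28 without wild-type replicate 2 to 0.86 without ieCtnnb1KO replicate 2, and 0 to 3 genes had such a p with a library left out. Of the 6 genes 5 were higher without wild-type replicate 1, without ieCtnnb1KO replicate 3 and with quantile normalization. *Dnase1* (0.69 ± 0.32) and *Fbp1*, a gluconeogenic enzyme (0.36 ± 0.17), had the smallest p-values (limma, adjusted p = 0.857 and 0.860). Of these genes *Fabp1* and *Apoa4* are also on the HNF4 list, and *Lct* is on the CDX2 list. All 4 ileal genes had lower values, with a median of -0.13, but 3 of 4 had higher values without wild-type replicate 2 or 3. Without wild-type replicate 1 all 4 were lower with an unadjusted p under 0.05 and a median of -0.97, so the direction depended on which library was left out. *Fabp6*, the ileal bile acid binding protein, was at 135, 991 and 2618.5 FPKM in wild-type and at 678, 617 and 661 FPKM in ieCtnnb1KO crypts. The wild-type libraries thus spanned the knockout values on both sides. In tumors these lists were nearly silent, with 2 of 6 jejunal and 3 of 4 ileal genes past the filter and no value above 1.82 FPKM.

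Several stomach genes, a class that the CDX factors keep out of the intestine, were highest in a pair of crypt libraries, wild-type replicates 1 and 2. Of 15 stomach genes 6 passed the filter, and *Gkn1*, *Gkn2* and *Muc6* did so only through the wild-type libraries where they were high, so neither a count nor a test of their direction is given. *Atp4a*, which was below the filter, was at 0.189, 0.174 and 0.0848 FPKM in wild-type and 0.555, 0.492 and 0.208 FPKM in ieCtnnb1KO crypts. *Tff2*, a trefoil peptide of gastric and duodenal glands, was at 122, 53.6 and 1.09 FPKM in wild-type and at 0.105, 3.37 and 0.122 FPKM in ieCtnnb1KO crypts. *Gkn3*, a gastrokine, was at 42.9, 29.3 and 11.5 FPKM and at 9.76, 13.5 and 7.90 FPKM. *Gkn1* and *Gkn2* were listed at 0 in wild-type replicate 3 and in all 3 knockout libraries. *Gkn3* was thus present in all 6 crypt libraries, whereas *Gkn1* and *Gkn2* were held by wild-type replicates 1 and 2 alone. *Cdx2* was at 96.3 and 99.5 FPKM in those libraries, above the 87.0 FPKM of wild-type replicate 3, and *Sox2* and *Barx1*, factors of the stomach, were listed at 0 in all 6. In tumors 5 of 6 stomach genes past the filter had lower values in the knockouts, while 51.3% of all genes tested were higher. The exception was *Vsig1*, which was higher without overlap (0.23 ± 0.13). Among the lower genes *Atp4a*, a proton pump subunit, was at 3.93, 3.93 and 3.61 FPKM and at 2.30, 2.39 and 2.05 FPKM (-0.66 ± 0.12, limma, adjusted p = 0.269), and *Muc6* had -1.22 ± 0.39.

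**Figure D5:**
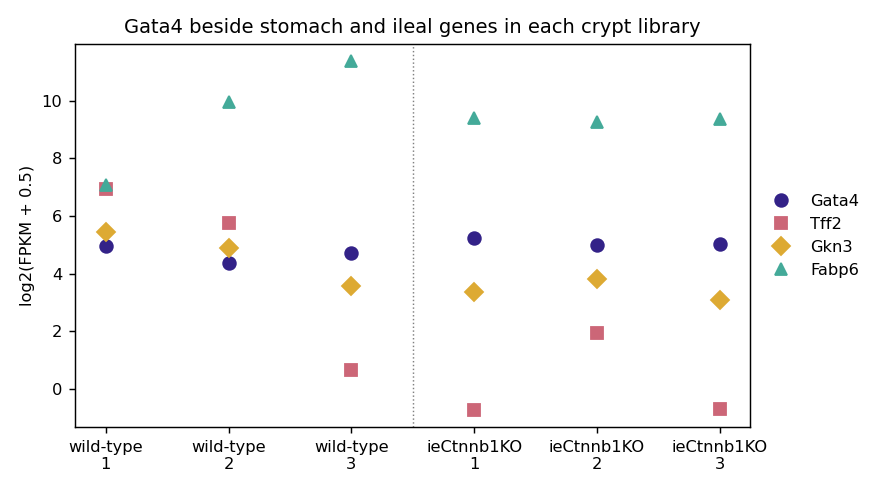
*Gata4*, the stomach genes *Tff2* and *Gkn3*, and the ileal gene *Fabp6* as log2(FPKM + 0.5) in each of the 6 crypt libraries, with the genotypes parted by a dotted line. *Tff2* stands at 122 and 53.6 FPKM in wild-type replicates 1 and 2, and *Fabp6* runs from 135 to 2618.5 FPKM among the wild-type libraries.

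Of 24 other gut transcription factors, all were tested in crypts and none had an unadjusted p under 0.05, with 12 higher and 12 lower. *Nr1h4*, the bile acid receptor FXR, was at 25.2, 34.8 and 26.1 FPKM in wild-type and 17.3, 24.8 and 21.7 FPKM in ieCtnnb1KO crypts (-0.42 ± 0.19, limma, adjusted p = 0.849). In tumors, 22 were tested and 16 had higher values in the knockouts, beside 51.3% of all genes tested. Of these 7 had an unadjusted p under 0.05, as did 1 of the 6 lower, beside 8.46% and 6% of all genes tested. *Creb3l3*, a factor of lipid metabolism, had 0.62 ± 0.18, *Nr1h4* 0.41 ± 0.12, *Esrra*, a regulator of mitochondrial genes, 0.40 ± 0.12 and *Atoh1* 0.60 ± 0.21 (limma, adjusted p from 0.282 to 0.308). *Klf4*, *Foxa3* and *Isx*, a homeobox gene that CDX2 is known to control, made up the rest of the 7. *Onecut2* had -0.75 ± 0.28. Leaving out a library gave 13 to 16 higher, 4 to 7 of them with an unadjusted p under 0.05.

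From public ChIP-seq the study named 8 factors at the mouse or human enhancer, of which *Hnf4a*, *Hnf4g* and *Cdx2* are described above. In crypts 4 of the 8 had higher values and none had an unadjusted p under 0.05, and in tumors 6 had higher values and 1, *Atoh1*, had an unadjusted p under 0.05, a share near the 14.5% of all genes tested. *Creb1*, which encodes a factor that binds cyclic AMP response elements, was at 4.72, 4.11 and 3.23 FPKM in wild-type and 3.71, 4.47 and 3.98 FPKM in ieCtnnb1KO crypts. In tumors *Creb1* was at 6.001, 6.11 and 6.20 FPKM and 6.23, 6.39 and 6.34 FPKM, a shift of 0.05 ± 0.08 on the log2 scale. *Kdm6a*, *Pparg* and *Vdr* were at or below 12.8 FPKM in all tumors, and *Vdr* lay between 56.8 and 72.0 FPKM in crypts.

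Colon segment genes were mostly absent from crypts. *Hoxd13* was listed at 0 in all 6 crypt libraries, and *Car1* and *Aqp8* stayed at or below 0.350 FPKM. *Slc26a3*, a chloride exchanger, was at 13.1, 16.9 and 14.6 FPKM in wild-type and 21.0, 17.7 and 23.3 FPKM in ieCtnnb1KO crypts (0.46 ± 0.15, limma, adjusted p = 0.800). In tumors *Car1*, a carbonic anhydrase, was at 67.4, 46.7 and 65.9 FPKM in controls and 78.3, 201 and 114 FPKM in knockouts (1.03 ± 0.34, adjusted p = 0.303), with its highest value in the library with the highest *Cdx2*. *Slc26a3* overlapped between the tumor genotypes.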

How the data were processed

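The authors deposited FPKM per gene in a table for each tissue, and their processing notes name cutadapt, HISAT2, Cufflinks 2.2.1 and DESeq2 with mm10, whereas the paper's methods name featureCounts. The values do not say which made them. FPKM times gene length, multiplied by a scale for each library, gave whole fragments for 100% of values (tolerance 0.05). Genes with a mean of at least 0.5 FPKM in the 6 libraries of a table were fitted with limma 3.58.1 (R 4.3.3) on log2(FPKM + 0.5) with a variance trend, and p-values were adjusted by Benjamini-Hochberg. The added 0.5 shrinks fold changes of genes with little expression. Ratios were tested with scipy 1.17.1 (Python 3.11.15) by exact permutation. The procedure was tested on simulated data. Named genes were the 8 factors, *Ctnnb1*, up to 4 genes of each list with the smallest p and its most abundant genes, genes sharing bases with a factor, and the 3 genes most like each factor. *Hoxd13*, *Cdhr2*, *Krt20*, *Onecut2*, *Creb1* and others fall outside this rule and were named after their values were seen. Members and lists were chosen with earlier results of these data known. Promoter sequences came from RefSeq (GRCm38.p6).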

Additional observations from a re-analysis of the deposited data

Results flagged for a closer look

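The knockout libraries lay on opposite sides of the controls in the 2 tissues for *Gata4* and *Nr1h4*. Groups did not overlap, in either direction, for 11.9% of all genes tested in crypts and 22.1% in tumors. The share of all genes that did so in opposite directions was not counted, so this is not a result about these genes. *Gata4* was higher in all 3 ieCtnnb1KO crypt libraries (0.40 on the log2 scale) and lower in all 3 APCmin/+;ieCtnnb1KO tumor libraries, where the counts were 5, 6 and 3 against 0, 0 and 1 fragments, and the difference was not tested because of that depth. *Nr1h4* was lower in crypts (-0.42) and higher in tumors (0.41), a difference of 0.84 that did not pass limma with Benjamini-Hochberg adjustment over all genes (adjusted p = 0.458). In crypts its highest knockout (24.8 FPKM) nearly met its lowest control (25.2 FPKM).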

How the results depend on the processing

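In crypts, 0 genes had an adjusted p under 0.05 (limma) in 19 of 20 alternatives, and 3 without wild-type replicate 3, so leaving out a library gave 0 to 3. In tumors the count was 0 in 19 of 20, and 1 with no variance trend. For the tumor minus crypt difference it was 2 with each tissue's own spread and 1 with the replicate block. Unadjusted p-values under 0.05 were found for 829 crypt, 2421 tumor and 1133 difference genes, and voom on recovered fragments gave 795 and 2533.

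Same-numbered libraries did not deviate together (r from -0.122 to 0.0541), so numbers did not pair them. With the replicate block 1 crypt factor had an unadjusted p under 0.05, as with voom, and leaving out a library gave 0 to 1. In tumors the count of 1 became 2 with no filter and with voom (all genes 9.91% and 15.1%). The factor added with no filter was *Gata4*, with 14 fragments in controls and 1 in knockouts, which is not read at that depth. With voom it was *Hnf4a*. Leaving out a tumor library gave a count of 1 to 2 (8.36% to 16.5%). The count was 3 on alignment to epithelium markers, where all genes shifted and 24.4% had such a p. The *Gata5* and *Gata6* added there are thus not read as results. Of 71 list genes in crypts 9 had such a p, of which 6 were stomach genes that are not read, and 3 of the other 65 (all genes 5.85%). The 9 became 14 with the same total in every library, 9 without stomach genes (6.3%), and 0 to 18 with a library left out, 0 to 12 without stomach genes (3.26% to 9.48%). Of 62 list genes in tumors, 25 had such a p (14.5%), which became 14 on alignment to epithelium markers (24.4%) and 13 to 23 with a library left out (8.36% to 16.5%).

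Scaling crypts to the same total moved the median of all genes to 0.14, and aligning tumors on epithelium markers moved it to -0.19. Relative to those medians *Hnf4a*, *Cdx2* and *Gata5* in crypts were at -0.07, -0.02 and -0.13, and *Hnf4a*, *Cdx1*, *Elf3*, *Gata5* and *Gata6* in tumors at 0.31, 0.59, 0.22, -0.17 and -0.07, the last 5 as in the main fit. With the same total in crypts, values turned above 0 but stayed below that median for *Hnf4a* (0.0788), *Cdx2* (0.13), *Gata5* (0.0140), *Fabp6* (0.0323), *Slc51a* (0.0955) and *Slc51b* (0.000931). Signs turned with quantile normalization for *Fabp6* (0.0818) and *Tff3* (0.10). With a library left out, log2 values ran in crypts from -0.115 to 0.0653 for *Cdx2* and from -0.0105 to 0.352 for *Elf3*. They ran from -0.475 to 0.00198 for *Atoh1*, from -1.31 to 0.83 for *Fabp6*, from -0.56 to 0.22 for *Slc51a* and from -0.64 to 0.18 for *Slc51b*. In tumors they ran from -0.247 to 0.00246 for *Slc10a2*, from -0.62 to 0.16 for *Sox2* and from -1.41 to 0.00827 for the *Cdx1* to *Cdx2* ratio, and in the tumor minus crypt difference from -0.131 to 0.0489 for *Gata5* and from -0.13 to 0.24 for *Elf3*.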
